A study of Mus musculus with 36 samples.

Results

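The 6 genes described here are 4 membrane mucins (Muc1, Muc4, Muc15 and Muc20), the small surface protein gene Psca and the mucin-branching enzyme gene Gcnt3. They were found by symbol among the 21705 genes of a deposited RNA sequencing table of 36 mouse libraries, and all 6 were present. The tumours came from 2 primary bladder tumour models and from 3 cell lines. UPPL primary tumours (9 libraries) arose in mice with Upk3a-CreERT2, an inducible Cre driven by the umbrella-cell gene Upk3a, floxed Trp53 and a Cre-dependent luciferase reporter at Rosa26. BBN primary tumours (11 libraries) arose in mice given the bladder carcinogen N-butyl-N-(4-hydroxybutyl)nitrosamine, with the genotype labelled Ctrl. Line-derived tumours were grown from UPPL1541 (4 libraries), BBN963 (2 libraries) and MB49 (4 libraries), a mouse bladder carcinoma line in wide use, and are labelled untreated. The same 3 lines were sequenced as cultures (1 library each), and cultures of 3 lines named KT1044, KT1970 and KT1975 complete the series, with the meaning of KT not given in the labels. The genotype of the UPPL1541 culture is labelled Ctrl, and its group was taken from its name. Each set of line-derived tumours stands for 1 line, so the spread between those tumours is not a spread between lines.

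Membrane mucins are large glycoproteins that are anchored in the apical membrane of epithelial cells and carry dense chains of O-linked sugars, which form a hydrated barrier on surfaces such as the urothelium. The chains begin with the addition of N-acetylgalactosamine by enzymes of the Galnt family, are extended to core 1 by C1galt1, and are branched by Gcnt enzymes, of which Gcnt3 makes core 2 and core 4 branches and is typical of mucin-producing epithelia. Psca is a lipid-anchored protein of the Ly6 family that is found on normal urothelium and on bladder carcinoma cells.

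Muc4 and Muc20 are neighbours on chromosome 16. In the GENCODE annotation of GRCm38, Muc4 lies on the forward strand and Muc20 on the reverse strand, and their exons share 627 bases, which is 5.33% of the 11757 exonic bases of Muc4 and 15.6% of the 4027 exonic bases of Muc20. The kit marks strand, but whether counting used it is not given in the sources used here, so reads in the shared bases may have been assigned to either gene. Muc15 on chromosome 2 shares 61 exonic bases (1.71% of its own) with Ano3 on the opposite strand. Muc1 on chromosome 3, Psca on chromosome 15 and Gcnt3 on chromosome 9 share no exonic base with another annotated gene. The deposited values were made on mm9, and the coordinates that follow belong to the reference sequences and not to the deposited table.

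Upstream sequences of 3 of the 6 genes were available from RefSeq (GRCm38.p6). They are shown as the 250 bases before the annotated start of transcription, since Muc1 moved apart from the other mucins and Muc4 and Muc20 share a locus in the results below. The Muc1 window is chr3:89228806-89229055 on the forward strand, the Muc4 window is chr16:32735636-32735885 on the forward strand, and the Muc20 window is chr16:32797436-32797685 on the reverse strand. Capitals mark matches to a TATA box (TATAAA), a GC box (GGGCGG) and an ELF and ETS core (AGGAAG).
Muc1: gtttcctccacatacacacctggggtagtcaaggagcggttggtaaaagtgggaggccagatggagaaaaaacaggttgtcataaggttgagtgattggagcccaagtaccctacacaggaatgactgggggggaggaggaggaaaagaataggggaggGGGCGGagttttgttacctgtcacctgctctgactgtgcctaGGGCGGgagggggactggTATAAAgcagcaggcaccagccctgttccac
Muc4: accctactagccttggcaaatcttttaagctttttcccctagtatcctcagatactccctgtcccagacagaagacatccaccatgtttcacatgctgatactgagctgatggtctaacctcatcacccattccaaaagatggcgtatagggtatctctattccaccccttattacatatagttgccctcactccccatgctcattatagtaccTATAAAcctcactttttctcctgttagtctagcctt
Muc20: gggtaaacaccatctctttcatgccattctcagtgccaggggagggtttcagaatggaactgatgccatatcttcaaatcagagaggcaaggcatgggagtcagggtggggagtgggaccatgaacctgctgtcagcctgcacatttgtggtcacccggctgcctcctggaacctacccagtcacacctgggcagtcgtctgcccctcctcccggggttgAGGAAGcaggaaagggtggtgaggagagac

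Muc1 and Muc4 hold a TATA box whose first base lies 31 and 36 bases before the start, and Muc1 also holds a pair of GC boxes. Muc20 holds neither of them and has 1 ELF and ETS core. Both strands were searched, with the further motifs AP-1 (TGANTCA), the site of GATA factors (AGATAA) and STAT (TTCNNNGAA) giving no match in the 3 windows. Among the 32851 promoters of the table, cut to the same 250 bases, 12.4% hold the TATA box, 32.7% the GC box and 29.5% the ELF and ETS core. The other shares were 6.75% for AP-1, 9.99% for GATA and 7.02% for STAT. No motif overlaps another in these windows, and a match is a description of the letters only.

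Values are given as deposited, in units in which the 75th percentile of the values above 0 in a library is 1000, and they are not divided by gene length, so levels were compared between libraries and not between genes. Differences are on the log2(value + 1) scale with the SE of the fit, and passed at a Benjamini-Hochberg adjusted p under 0.05 in limma across all genes that entered a comparison. Libraries held 9.29 to 17.9 M recovered reads. The smallest values of a library repeated most often at 1 read in the cultures and at 2 to 19 reads in the tumours. In 5 tumours this step was at least 10 reads (BBN963 tumour 1, MB49 tumour 1, BBN962, UPPL1595 and UPPL1597), so a tumour value of 0 can stand for more than 1 missing read there. Superficial urothelial markers (Upk1a, Upk1b, Upk2, Upk3a, Upk3b and Krt20) were above 0 in both primary models, whereas in MB49 tumours their summed level was 8.53 to 22.9 units with Upk3a and Upk3b at 0 in all 4. All values are from bulk RNA, in which fewer cells of a type and less RNA per cell cannot be told apart.

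Each gene had its own order of groups. Psca had its highest medians in the primary tumours, at 10957 units in UPPL and 12547 units in BBN tumours, with overlapping ranges, and was listed at 0 in the MB49 culture and in all 4 MB49 tumours. Gcnt3 had its highest median in UPPL primary tumours, followed by the KT cultures, whose range overlapped theirs. By group median, Muc4, Muc20 and Muc1 were all highest in the UPPL1541 culture, at 4087, 610 and 443 units, followed by the UPPL1541 tumours. For Muc20 and Muc1 the range of the UPPL1541 tumours overlapped that of the next group, UPPL primary tumours for Muc20 and BBN primary tumours for Muc1. Muc15 had its highest median in UPPL1541 tumours, but that range overlapped the range of UPPL primary tumours.

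The order also differed in where neighbouring groups separated. For Muc4, the UPPL1541 culture stood 4.27-fold above the next library, UPPL1541 tumour 1 (958 units), and the UPPL1541 tumours (530 to 958 units) did not overlap the next group, UPPL primary tumours (0 to 287 units). For Muc1 the highest of all 36 libraries was BBN969, at 637 units, above the UPPL1541 culture. For Psca the highest libraries were UPPL1695 and UPPL1612, and for Gcnt3 they were UPPL1595 and KT1975 at 1693.6 and 1666.7 units. Muc1, Muc15 and Psca were listed at 0 in 5 libraries each, Gcnt3 in 4, Muc20 in 9 and Muc4 in 10.

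**Figure D1:**
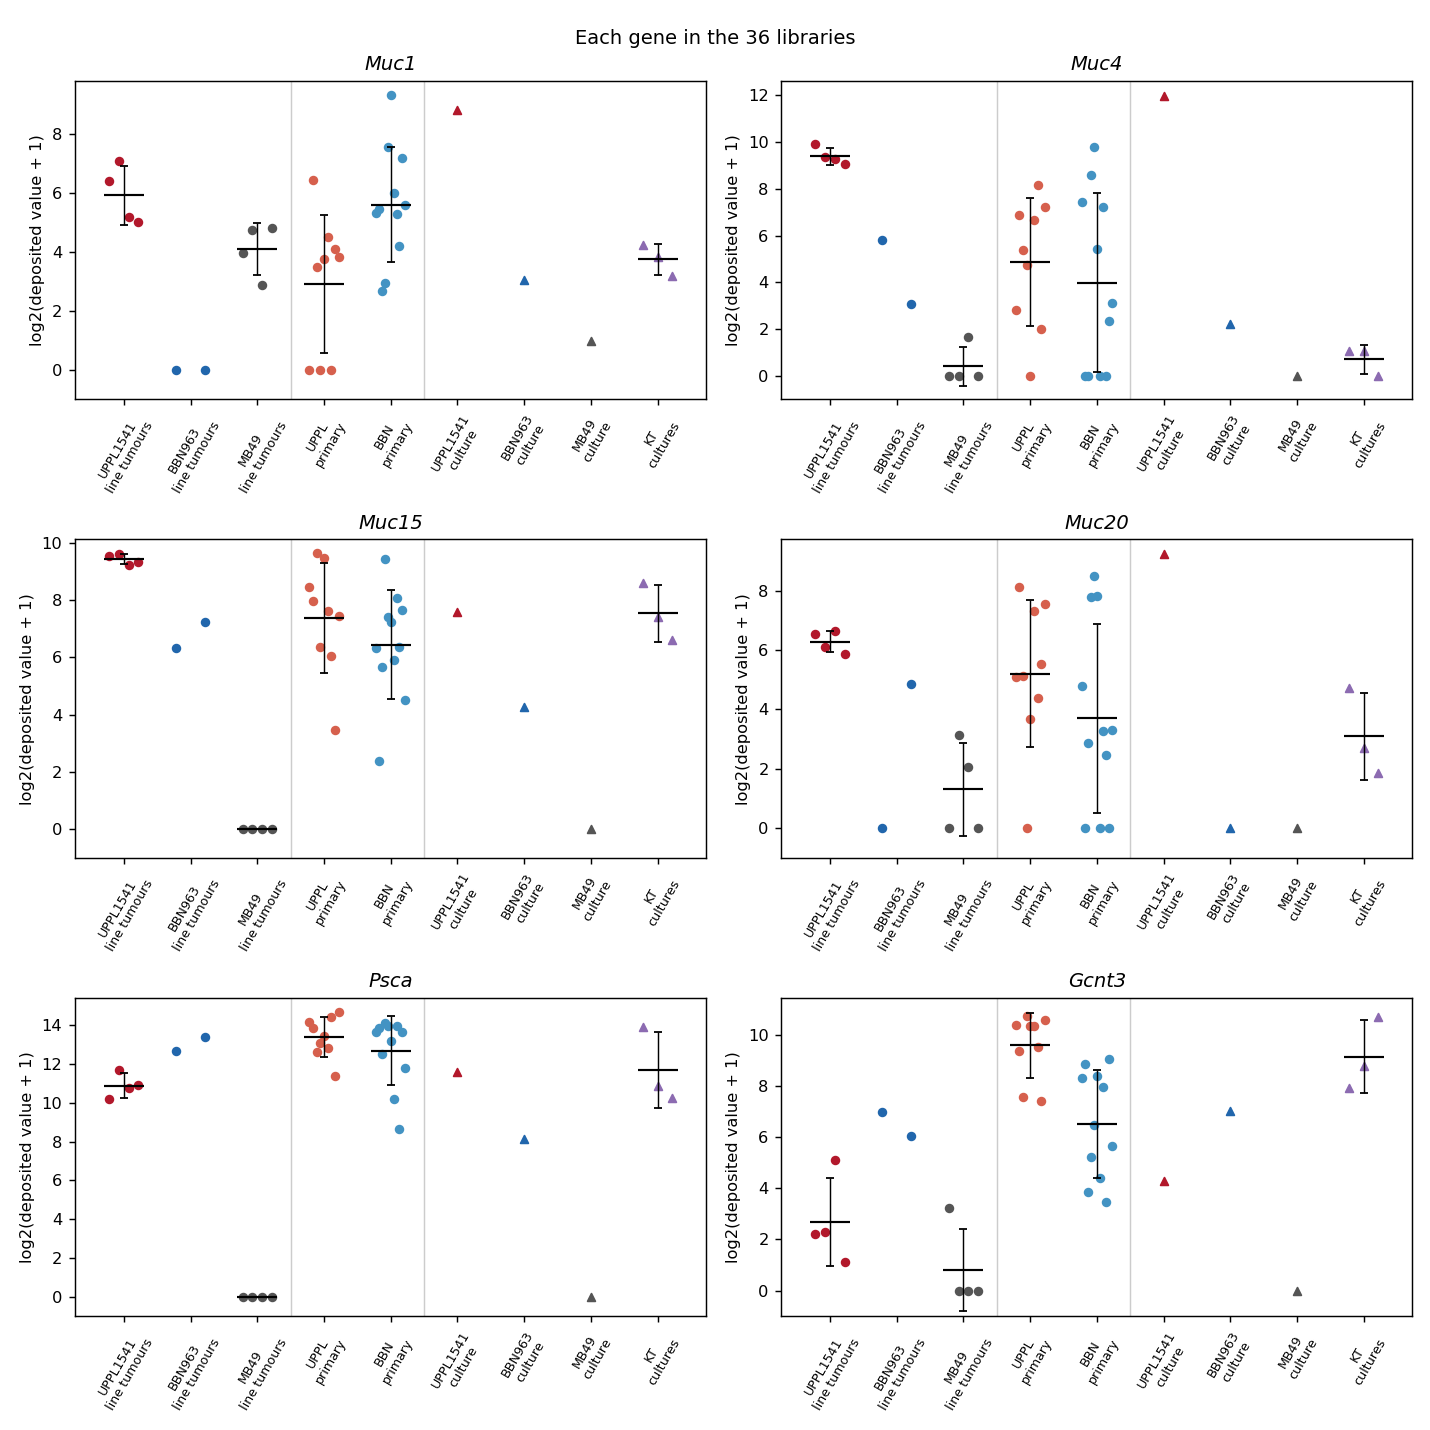
Each panel plots 1 gene as log2(deposited value + 1) in the 36 libraries by group, with circles for tumours, triangles for cultures, and bars for the mean ± SD in groups of 3 or more libraries. The 4 MB49 tumours and the MB49 culture sit at 0 for Muc15 and Psca, and the UPPL1541 culture is the highest library for Muc4 and Muc20.

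The question of the primary comparison is how the 2 models differ before any passage in culture. In UPPL against BBN tumours, 1 of the 6 genes was higher (Gcnt3), 1 was lower (Muc1) and 4 did not pass, against 18.5% of the 12818 genes tested (5.71% higher and 12.8% lower). Gcnt3 averaged 989.1 ± 567.6 units in UPPL tumours and 190 ± 192 units in BBN tumours (SD, n = 9 and 11), a 5.19-fold ratio of means. Muc1 averaged 17.6 ± 26.2 units in UPPL tumours and 111 ± 183 units in BBN tumours. The median difference of all genes tested was -0.19.

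Gcnt3 ran from 170 to 1693.6 units with a median of 1288 in UPPL tumours, against 9.95 to 525.6 units with a median of 88.4 in BBN tumours. The groups overlapped, with 7 of the 9 UPPL tumours above every BBN tumour and the remaining UPPL1694 and UPPL1591, at 170 and 190 units, inside the BBN range. The difference was 3.08 ± 0.73 (log2, SE), with an adjusted p of 0.0065 in limma. It passed under all 10 alternative settings that gave a value, and without each of the 20 tumours in turn it stayed between 2.77 and 3.35.

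Muc1 ran from 0 to 84.4 units with a median of 12.6 in UPPL tumours, against 5.40 to 637 units with a median of 42.7 in BBN tumours. It was listed at 0 in 3 UPPL tumours (UPPL1541, UPPL1595 and UPPL1612) and in no BBN tumour, and the groups overlapped. The smallest values of UPPL1595 and UPPL1612 repeated most often at 16 and 7 reads. BBN964 and BBN965 held 6 reads each (5.40 and 6.76 units), so the zeros of UPPL1595 and UPPL1612 cannot be told from these values. The difference was -2.69 ± 0.92 with an adjusted p of 0.044 in limma. This call is close to the threshold: it was lost without any 1 of BBN962, BBN963, BBN968, BBN969, BBN972, BBN973, BBN975, BBN976, UPPL1541, UPPL1595, UPPL1597, UPPL1612 and UPPL1695 (13 of 20 tumours; over all 20, limma adjusted p 0.022 to 0.089), in an edgeR fit on recovered reads (adjusted p = 0.086) and in 6 other settings.

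For the other 3 mucins and Psca, the model means differed by less than the SD within either model. Muc4, a mucin that binds the receptor ErbB2, ran from 0 to 287 units (median 40.6) in UPPL tumours, against 0 to 899 units (median 7.71) in BBN tumours. BBN968 was the highest tumour, and Muc4 was listed at 0 in 4 BBN tumours and in 1 UPPL tumour. The difference was 0.88 ± 1.41 with a limma adjusted p of 0.69, and it was -0.85 in the edgeR fit.

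Muc15, a small membrane mucin, ran from 9.99 to 798 units (median 194) in UPPL tumours, against 4.16 to 698 units (median 81.4) in BBN tumours. Only UPPL1591 and UPPL1597 exceeded every BBN tumour, and the difference was 0.93 ± 0.79 (limma adjusted p = 0.42). Muc20, whose human protein binds the receptor MET, ran from 0 to 278 units (median 33.9) in UPPL tumours, against 0 to 359 units (median 8.74) in BBN tumours. The ranges overlapped almost fully, and the difference was 1.49 ± 1.21 (limma adjusted p = 0.40).

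Psca ran from 2634 to 25876 units (median 10957) in UPPL tumours, against 403 to 17877 units (median 12547) in BBN tumours. UPPL1541, UPPL1612 and UPPL1695 were above every BBN tumour, and BBN974 and BBN972, at 403 and 1173 units, were the lowest of the primary tumours. The difference was 0.70 ± 0.61 (limma adjusted p = 0.44). Psca was thus well above 0 in all 20 primary tumours.

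**Figure D2:**
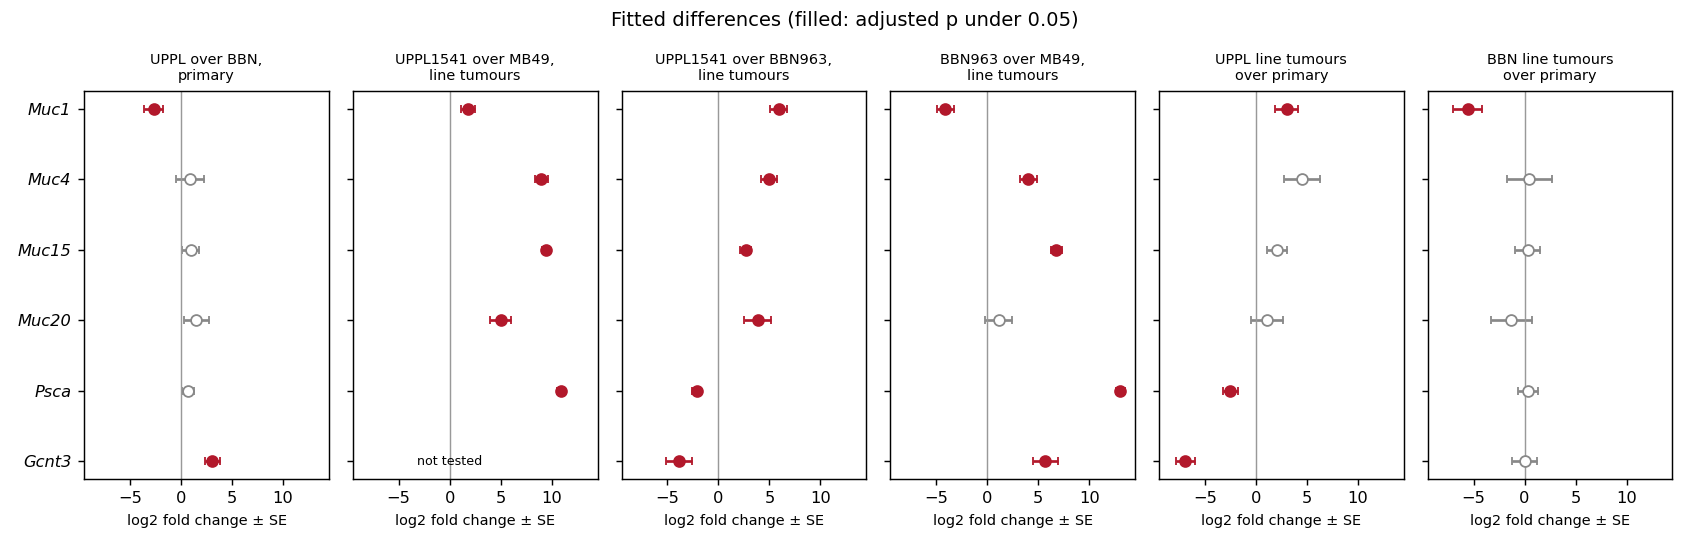
Points are log2 fold changes of the first over the second group named above each panel, with bars of ± 1 SE, filled where the limma adjusted p was under 0.05. Gcnt3 was higher in UPPL than in BBN primary tumours and lower in UPPL1541 tumours than in UPPL primary tumours, while Muc1 was the lower one in primary UPPL tumours when set against BBN.

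Related genes in the primary tumours were read from 5 lists, and their counts stand beside 18.5% of all genes called there (5.71% higher and 12.8% lower). Of other membrane mucins, 2 of 8 symbols were in the table and only Cd164, a sialomucin, was tested, at 3511 ± 1047 units in UPPL and 4402 ± 970 units in BBN tumours without passing. Of 12 secreted mucins and mucus partners 5 were tested, and 1 passed: Agr2, an endoplasmic reticulum protein needed for mucin folding, was lower, at 11.06 ± 10.03 units in UPPL and 125 ± 171 units in BBN tumours (-3.21 ± 0.95, limma adjusted p = 0.023). Spdef, a transcription factor of secretory cells, had 47.3 ± 36.6 units in UPPL and 15.5 ± 20.2 units in BBN tumours and did not pass (limma adjusted p = 0.11).

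Among the 8 tested enzymes of O-glycan initiation, Galnt12 had the lowest adjusted p and missed the threshold, at 233 ± 176 units in UPPL and 392 ± 150 units in BBN tumours (limma adjusted p = 0.058). Of 12 tested enzymes of core extension and capping 1 passed, C1galt1, the core 1 synthase, which was higher at 1474 ± 318 units in UPPL and 904 ± 502 units in BBN tumours (0.89 ± 0.29, limma adjusted p = 0.033). Gcnt2, a branching enzyme of the same family as Gcnt3, lay the other way, at 688 ± 412 units in UPPL and 1099 ± 433 units in BBN tumours, and did not pass (limma adjusted p = 0.11). Of 13 tested members of the Ly6 and uPAR family, to which Psca belongs, 1 passed: Ly6d, a surface protein of stratified epithelia, was higher (1.06 ± 0.32, limma adjusted p = 0.027). The shares called in the initiation, extension and Ly6 lists were under the 18.5% of all genes called there. The list medians were -0.52 for secreted mucins and partners, 0.19 for initiation, -0.19 for extension and 0.35 for the Ly6 family, beside -0.19 over all genes.

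Markers of other cell types also moved in this comparison. Superficial urothelial markers were higher for 4 of 6 genes, with summed levels of 3030 to 56085 units in UPPL and 115 to 8168 units in BBN tumours. Leukocyte markers were lower for 3 of 4 tested genes, with sums of 206 to 895 units in UPPL and 587 to 3034 units in BBN tumours, and smooth muscle markers for 2 of 6, with sums of 401 to 49452 units in UPPL and 453 to 202695 units in BBN tumours. Their part in the differences of Gcnt3 and Muc1 was not tested.

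The line-derived tumours show how far the 3 lines differ as transplants. In UPPL1541 against MB49 tumours, 5 of the 6 genes were higher, against 51.2% of the 13826 genes tested (27.7% higher and 23.4% lower). Gcnt3 was not tested there because it was under the filter on low values. Psca was at 1148, 1701, 1946 and 3297 units in UPPL1541 tumours and at 0 in all 4 MB49 tumours, so that its mean was at least 376-fold higher. The floor of each library was taken as 3 reads or the step at which its smallest values repeated, whichever was larger. Such bounds set the mean of the higher group against the mean floor of the other. Muc15 was at 607, 651, 746 and 777 units in UPPL1541 tumours and at 0 in all 4 MB49 tumours, at least 129-fold higher. The fitted differences were 10.88 ± 0.36 and 9.44 ± 0.41, with limma adjusted p of 1.4e-09 and 1.4e-08. The groups did not overlap for either gene, as for 49.4% of the genes tested.

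Muc4 was at 530, 627, 661 and 958 units in UPPL1541 tumours and at 0, 0, 0 and 2.13 units in MB49 tumours (8.99 ± 0.67, limma adjusted p = 1.0e-06). Muc20 was at 57.2, 68.0, 92.1 and 98.1 units in UPPL1541 tumours and at 0, 0, 3.20 and 7.86 units in MB49 tumours (4.98 ± 1.06, limma adjusted p = 0.0024). Both genes were separated without overlap. Muc1 was at 31.0, 34.8, 83.6 and 133 units in UPPL1541 tumours and at 6.40, 14.6, 25.8 and 26.8 units in MB49 tumours.

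For Muc1 the groups did not overlap either, yet the smallest value of UPPL1541 lay close to the largest of MB49. Its difference was 1.81 ± 0.67 with a limma adjusted p of 0.043, and the call was lost without MB49 tumour 1 (1.76, adjusted p = 0.078), MB49 tumour 3 (1.41, adjusted p = 0.13), UPPL1541 tumour 1 (1.644, adjusted p = 0.11) or UPPL1541 tumour 2 (1.42, adjusted p = 0.12). It was also lost in 6 of 10 other settings (limma and edgeR adjusted p 0.022 to 0.27 over the 10). Gcnt3 was at 1.19, 3.58, 3.91 and 33.5 units in UPPL1541 tumours and at 0, 0, 0 and 8.32 units in MB49 tumours.

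The difference between these tumours extended over cell type markers. Epithelial markers were higher for 4 of 6 and lower for 2 of 6 genes, basal urothelial markers higher for 5 of 6 and lower for 1 of 6, and squamous markers higher for all 7. The squamous genes Krt1, Ivl, Lor and Krt13 were at 0 in all MB49 tumours and so could not come out lower. Summed basal markers were 254403 to 344069 units in UPPL1541 tumours and 3289 to 4365 units in MB49 tumours. Leukocyte markers were lower for all 6 tested genes, with sums of 4035 to 7377 units in UPPL1541 tumours and 10158 to 14088 units in MB49 tumours. Fibroblast markers were higher for 4 of 6 genes, with sums of 73862 to 368464 units in UPPL1541 tumours and 14883 to 110663 units in MB49 tumours. Their part in the mucin and Psca differences was not tested. The cultures, with 1 library per line, had Psca at 3012 units in UPPL1541 and 0 in MB49, and Muc15 at 191 units in UPPL1541 and 0 in MB49.

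In UPPL1541 against BBN963 tumours, 4 of the 6 genes were higher and 2 were lower, against 28.8% of the 14604 genes tested (21.4% higher and 7.37% lower), with a median of 0.32 over all genes. The mucins and the pair of Psca and Gcnt3 lay on opposite sides. Muc1, at 31.0 to 133 units in UPPL1541 tumours, was listed at 0 in both BBN963 tumours, whose smallest values repeated most often at 19 and 9 reads, and so was at least 4.02-fold higher in UPPL1541 tumours (5.91 ± 0.83, limma adjusted p = 0.00064). The Muc1 groups did not overlap, as for 45.9% of the genes tested. Muc4, at 530 to 958 units in UPPL1541 tumours, was at 7.35 and 55.8 units in BBN963 tumours, again without overlap (4.96 ± 0.83, limma adjusted p = 0.0016). In 1 fit over all 36 libraries, where every group shares the estimate of spread, the calls of Muc4, Muc15 and Psca in this comparison were lost (limma adjusted p = 0.16, 0.19 and 0.20).

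Muc15 averaged 695 ± 79.4 units in UPPL1541 tumours and 114 ± 50.1 units in BBN963 tumours, where it was at 78.7 and 150 units (2.66 ± 0.52, limma adjusted p = 0.0037). Muc20, at 57.2 to 98.1 units in UPPL1541 tumours, was at 0 and 28.2 units in BBN963 tumours (3.85 ± 1.30, limma adjusted p = 0.046). The Muc20 difference was 1.42 without BBN963 tumour 1 (limma adjusted p = 0.46). Its call was also lost without MB49 tumour 3 or 4, which enter the shared estimate of spread, or without any of the 4 UPPL1541 tumours (adjusted p 0.0064 to 0.46 over the 10 left-out libraries), and in 9 of 10 other settings.

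Psca was at 1148 to 3297 units in UPPL1541 tumours and at 6534 and 10638 units in BBN963 tumours, so every UPPL1541 tumour was lower. Its difference was -2.15 ± 0.44 with a limma adjusted p of 0.0047, and without BBN963 tumour 2 it was -1.80 and no longer passed. Gcnt3 averaged 10.6 ± 15.4 units in UPPL1541 tumours and 95.9 ± 43.8 units in BBN963 tumours, where it was at 65.0 and 127 units (-3.84 ± 1.25, limma adjusted p = 0.041). Among the other line-derived tumours only UPPL1541 tumour 3 (33.5 units) reached the filter on low values for Gcnt3. The gene thus entered through the BBN963 tumours, and a higher call in UPPL1541 tumours was hardly possible. The groups did not overlap for Gcnt3, but its call was lost without BBN963 tumour 1 or 2, MB49 tumour 3 or 4, or UPPL1541 tumour 1, 2 or 4 (limma adjusted p 0.052 to 0.20), and in 6 of 10 other settings. Of 6 superficial urothelial markers 4 were tested and all were higher, with sums of 3174 to 6073 units in UPPL1541 tumours and 250 to 360 units in BBN963 tumours. Upk1a, Upk1b, Upk2, Upk3a and Upk3b were at 0 in both BBN963 tumours. Those of them that passed the filter did so through other tumours and could not come out lower, so this count was largely fixed beforehand. The part of these markers in the differences was not tested.

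In BBN963 against MB49 tumours, 4 of the 6 genes were higher and 1 was lower, against 41.9% of the 14604 genes tested (15.8% higher and 26.1% lower), with a median of -0.24 over all genes. Psca was at least 1596-fold higher (13.03 ± 0.44, limma adjusted p = 3.9e-09) and Muc15 at least 21.2-fold higher (6.77 ± 0.52, limma adjusted p = 2.0e-06), both against MB49 tumours at 0. Gcnt3 was higher by 5.72 ± 1.25 (limma adjusted p = 0.0036). Besides the BBN963 tumours, only UPPL1541 tumour 3 (33.5 units) reached the filter on low values for Gcnt3 in this fit. The gene thus entered through its higher group, and a lower call was hardly possible. Muc4 was higher by 4.03 ± 0.83 (limma adjusted p = 0.0024), with the Muc4 call lost in 1 fit over all 36 libraries (adjusted p = 0.21). Muc1 went the other way, listed at 0 in both BBN963 tumours against 6.40 to 26.8 units in MB49 tumours (-4.10 ± 0.83, limma adjusted p = 0.0023). The mean of the MB49 tumours was 1.05-fold above the floor of the BBN963 tumours (17.6 units). MB49 tumours 1 and 3, at 14.6 and 6.40 units, lay under that floor. The Muc1 call missed the threshold with a pseudocount of 10 (limma adjusted p = 0.054). Muc20 did not pass (1.13 ± 1.30, limma adjusted p = 0.52). Groups without overlap made up 53.5% of the genes tested, and Psca, Muc15, Gcnt3, Muc4 and, by its listed values, Muc1 were among them. Basal urothelial markers were higher for 5 of 6 genes, with sums of 399125 to 425014 units in BBN963 tumours and 3289 to 4365 units in MB49 tumours, and their part was not tested.

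Counts over the lists of related genes in UPPL1541 against MB49 tumours stand beside the 51.2% of all genes called there (27.7% higher and 23.4% lower). Of 8 tested initiating enzymes 4 were higher and 0 lower, near the share over all genes, among them Galnt3, at 541 ± 79.6 units in UPPL1541 and 20.2 ± 13.2 units in MB49 tumours (4.99 ± 0.52, limma adjusted p = 1.6e-05). Of 13 enzymes of extension and capping 6 were higher and 3 lower, with a median of 0.07 beside 0.04 over all genes. Gcnt1, the leukocyte-type core 2 enzyme and a relative of Gcnt3, was among the lower ones, at 335 ± 67.3 units in UPPL1541 and 2686 ± 543 units in MB49 tumours (-3.00 ± 0.23, limma adjusted p = 1.3e-06). In BBN963 tumours Gcnt1 was at 242 ± 96.3 units, also lower than in MB49 tumours (-3.50 ± 0.28, limma adjusted p = 2.8e-06). Of 14 tested Ly6 and uPAR family genes 8 were higher and 5 lower in UPPL1541 than in MB49 tumours, with a median of 3.67. Lypd3, a surface protein of stratified epithelium, was at 8499 ± 3485 units in UPPL1541 and 1.75 ± 3.50 units in MB49 tumours (12.23 ± 0.61, limma adjusted p = 3.9e-08).

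In UPPL1541 against BBN963 tumours, of 8 initiating enzymes 3 were higher and 1 lower, and of 13 extension enzymes 3 were higher and 2 lower, beside 28.8% of all genes called there (21.4% higher and 7.37% lower). The list medians were -0.185 and 0.505 beside 0.32 over all genes. Galnt6 was lower, at 1227 ± 95.9 units in UPPL1541 and 2937 ± 5.97 units in BBN963 tumours (-1.26 ± 0.22, limma adjusted p = 0.0021), while St3gal4, a sialyltransferase, was higher at 1637 ± 157 units in UPPL1541 and 603 ± 253 units in BBN963 tumours (1.501 ± 0.289, limma adjusted p = 0.0034). Agr2 was at 95.4 ± 63.0 units in UPPL1541 tumours and at 0 in both BBN963 and all 4 MB49 tumours. The Ly6 and uPAR family had 2 higher and 3 lower of 15 tested genes. Ly6a was among the lower, at 5303 ± 1212 units in UPPL1541 and 24680 ± 3288 units in BBN963 tumours (-2.24 ± 0.26, limma adjusted p = 0.00021).

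UPPL1541 tumours were then set against UPPL primary tumours in a fit of the 4 UPPL and BBN tumour groups. Of the 6 genes 2 were lower (Gcnt3 and Psca), 1 was higher (Muc1) and 3 did not pass, against 27.3% of the 14483 genes tested (21.0% higher and 6.30% lower), with a median of 0.36 over all genes. Gcnt3 averaged 10.6 ± 15.4 units in UPPL1541 tumours and 989.1 ± 567.6 units in UPPL primary tumours, where the lowest was 170 units. The groups did not overlap, as for 16.9% of the genes tested, and the difference was -6.90 ± 0.97 (limma adjusted p = 1.2e-05). It passed without each of 26 libraries in turn, at -7.71 to -6.38, and under all 11 other settings.

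Psca averaged 2023 ± 913 units in UPPL1541 tumours and 12904 ± 7772 units in UPPL primary tumours. UPPL1541 tumour 2 (3297 units) overlapped the lowest primary tumour, UPPL1694 (2634 units), and the other 3 tumours lay below every primary tumour. The difference was -2.49 ± 0.76 (limma adjusted p = 0.016), and without UPPL1541 tumour 1 it was -2.25 with an adjusted p of 0.061. Muc1 averaged 70.6 ± 48.0 units in UPPL1541 tumours and 17.6 ± 26.2 units in UPPL primary tumours, and UPPL1544, at 84.4 units, lay inside the range of the line-derived tumours.

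The Muc1 difference was 3.01 ± 1.14 with a limma adjusted p of 0.0499. Leaving out any 1 of 20 of the 26 libraries in the fit ended the call (adjusted p 0.022 to 0.15 over the 26), the exceptions being BBN964, BBN965, BBN969, UPPL1544, UPPL1598 and UPPL1694, and 9 of 11 other settings ended it too. Without UPPL1541 tumour 2 the adjusted p was highest, with a difference of 2.62. Muc4 was above every UPPL primary tumour in all 4 UPPL1541 tumours, at 694 ± 185 units against 81.3 ± 94.9 units in UPPL primary tumours, and its difference of 4.53 ± 1.73 missed the threshold (limma adjusted p = 0.052). That call was gained under 3 of 11 other settings, and also without any 1 of BBN962, BBN963, BBN964, BBN965, BBN968, BBN972, BBN974, UPPL1544, UPPL1598, UPPL1612 and UPPL1695 (adjusted p 0.037 to 0.12 over the 26 libraries). Muc15 (2.05 ± 0.97, limma adjusted p = 0.12) and Muc20 (1.08 ± 1.53, limma adjusted p = 0.63) did not pass.

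Fibroblast markers moved with this comparison, higher for all 6 genes, with sums of 73862 to 368464 units in UPPL1541 tumours and 330 to 6775 units in UPPL primary tumours. Epithelial markers were lower for 5 of 6 genes, with sums of 21221 to 25212 units in UPPL1541 tumours and 54428 to 167177 units in UPPL primary tumours. Superficial urothelial markers were lower for 4 and higher for 1 of 6 genes (median -6.92), with sums of 3174 to 6073 units in UPPL1541 tumours, where Upk3b was at 0 in all 4, and 3030 to 56085 units in UPPL primary tumours. Leukocyte markers were higher for 4 of 6 tested genes, with sums of 4035 to 7377 units in UPPL1541 tumours and 206 to 895 units in UPPL primary tumours. The part of these markers in the differences of Gcnt3, Psca and Muc1 was not tested.

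BBN963 tumours were set against BBN primary tumours in the same fit. Of the 6 genes 1 was lower (Muc1) and 5 did not pass, against 7.76% of the 15229 genes tested (2.09% higher and 5.67% lower). Muc1 was at 0 in both BBN963 tumours and at 5.40 to 637 units in the 11 BBN primary tumours. The floor of the BBN963 tumours (17.6 units) was 6.33-fold under the mean of the BBN primary tumours (111 units), whose median was 42.7 units. BBN964 (5.40 units), BBN965 (6.76 units) and BBN974 (17.2 units) lay under that floor. The listed values did not overlap, as for 12.8% of the genes tested. A value of 0 in BBN963 tumours cannot be told from the values of BBN964, BBN965 and BBN974. The difference was -5.59 ± 1.46 (limma adjusted p = 0.018), with an adjusted p of 0.21 without BBN963 tumour 1, 0.14 without BBN963 tumour 2, 0.18 without the 4 tumours of this fit with a step of at least 10 reads, 0.075 with a pseudocount of 10 and 0.065 in the edgeR fit. Superficial urothelial markers were lower for 3 of 6 genes (median -5.34), with sums of 250 to 360 units in BBN963 tumours, where Krt20 alone was above 0, and 115 to 8168 units in BBN primary tumours. Epithelial markers were lower for 3 of 6 genes (median -2.07), with sums of 17396 to 30994 units in BBN963 tumours and 27964 to 100228 units in BBN primary tumours, and the part of both lists in the Muc1 difference was not tested.

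Psca averaged 8586 ± 2902 units in BBN963 tumours and 9944 ± 6258 units in BBN primary tumours, and Gcnt3 95.9 ± 43.8 units in BBN963 tumours and 190 ± 192 units in BBN primary tumours. The line-derived values lay inside the primary range for both genes, and the differences were 0.35 ± 0.97 and 0.01 ± 1.243 (limma adjusted p = 0.86 and 1). Muc4 (0.45 ± 2.21), Muc15 (0.32 ± 1.235) and Muc20 (-1.28 ± 1.96) did not pass either, and all 5 of these differences changed sign under some setting.

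Whether the model difference itself differed between line-derived and primary tumours was tested with an interaction term, which 9.22% of the 15229 genes passed (8.16% higher and 1.06% lower), with a median of 0.55 over all genes. Of the 6 genes 1 was higher, 1 lower and 4 did not pass. For Muc1 the difference of UPPL over BBN was 5.91 in line-derived and -2.69 in primary tumours, and the term was 8.60 ± 1.85 (limma adjusted p = 0.0055). For Gcnt3 it was -3.84 in line-derived and 3.08 in primary tumours, and the term was -6.91 ± 1.58 (limma adjusted p = 0.0079). So the fitted differences of both genes had opposite signs in the 2 kinds of tumour, with 1 line per model on the line-derived side. Muc1 was listed at 0 in both BBN963 tumours, and its line-derived difference was 2.815 with a pseudocount of 10. The Muc1 call in primary tumours and the Gcnt3 call in line-derived tumours were each lost under many settings, as given above. The Muc1 term passed without each library in turn and missed the threshold in edgeR (adjusted p = 0.060) and without the 4 tumours of this fit with such a step of at least 10 reads (adjusted p = 0.062). The Gcnt3 term missed it without BBN963 tumour 1 (-6.43, adjusted p = 0.087) and without those 4 tumours (adjusted p = 0.11). Psca (-2.84 ± 1.23, limma adjusted p = 0.14), Muc4 (4.08 ± 2.81, 0.37), Muc15 (1.73 ± 1.57, 0.51) and Muc20 (2.36 ± 2.49, 0.58) did not pass.

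**Figure D3:**
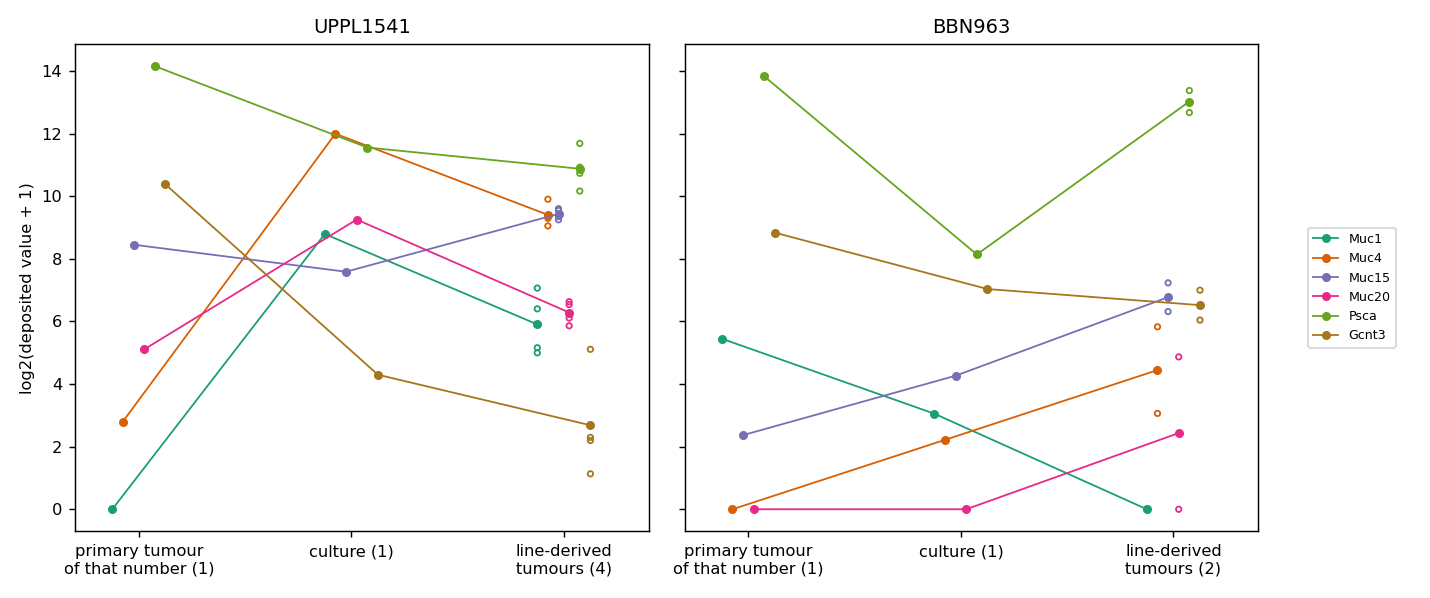
Lines join, for UPPL1541 and BBN963, the primary tumour of the same number, the culture and the mean of the line-derived tumours on the log2(deposited value + 1) scale, with open circles for single tumours. Gcnt3 stands at 1330 units in primary tumour UPPL1541 and 18.7 units in the culture, and Muc4 at 5.98 and 4087 units.

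The primary tumours that carry the numbers of the lines place these differences along a path, with 1 library at each of its early steps and no replicate check there. In UPPL1541, Gcnt3 was at 1330 units in the primary tumour, 18.7 units in the culture and 1.19 to 33.5 units in the line-derived tumours. Muc4 was at 5.98 units in the primary tumour, 4087 units in the culture and 530 to 958 units in the line-derived tumours. Muc1 was listed at 0 in the primary tumour, at 443 units in the culture and at 31.0 to 133 units in the line-derived tumours, and Muc20 was at 33.5, 610 and 57.2 to 98.1 units along the same path. In all 3 of these mucins the culture was therefore the highest step.

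Psca in the UPPL1541 path was at 18263 units in the primary tumour, 3012 units in the culture and 1148 to 3297 units in the line-derived tumours, so its lower level was already present in culture. In BBN963, Psca was at 14545 units in the primary tumour, 281 units in the culture and 6534 and 10638 units in the line-derived tumours. The culture was thus the lowest step in that line, 23.3-fold under the lower of the tumours. Gcnt3 in the same path was at 456 units, 130 units and 65.0 to 127 units, and Muc15 at 4.16 units, 18.2 units and 78.7 to 150 units.

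Over the 3 lines, line-derived tumours and cultures were compared with line as a factor, and none of the 6 genes passed, against 29.1% of the 14321 genes tested (20.1% higher and 8.99% lower). At an unadjusted p under 0.05, 1 of the 6 did in limma (Muc15, p = 0.021), and in the edgeR fit Muc15 passed with an adjusted p of 0.0059. Muc15 was higher in every tumour than in the culture of its line for UPPL1541 (607 to 777 units in tumours, 191 units in culture) and BBN963 (78.7 and 150 units in tumours, 18.2 units in culture), and was at 0 in all MB49 libraries. Its shared difference was 1.39 ± 0.53 (limma adjusted p = 0.067), and without the MB49 culture it was 2.15 with an adjusted p of 0.0092. Psca (1.198 ± 0.751), Muc1 (-0.81 ± 1.03), Gcnt3 (-0.44 ± 0.96), Muc20 (0.13 ± 1.15) and Muc4 (-0.11 ± 0.83) did not pass. Without the MB49 culture the Muc1 difference was -2.96 and passed (limma adjusted p = 0.014).

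Single lines lay on different sides of the shared differences. Muc4 was lower in all 4 UPPL1541 tumours than in their culture (694 ± 185 units in tumours, 4087 units in culture), whereas the BBN963 tumours were at 7.35 and 55.8 units (6 and 44 reads) and their culture at 3.65 units (3 reads), close to the floor of these libraries. Psca was 30.6-fold higher in the mean of the BBN963 tumours than in the culture, whereas the UPPL1541 tumours lay on both sides of theirs. With 1 culture per line these contrasts have no replicate check. Fibroblast, smooth muscle and leukocyte markers were higher in tumours than in cultures for all 6 tested genes of each list. Lum, Cd3e, Cd8a and C1qb were at 0 in every culture of these lines and could not come out lower. Other genes of the lists, such as Ptprc, Dcn and Des, were at 0 in part of the cultures, so these counts were partly fixed beforehand. The part of these markers in the Muc4, Muc20 and Muc1 values was not tested.

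The 3 KT cultures enter no test because their group has no counterpart in the design. Psca was at 15306, 1881 and 1226 units in KT1044, KT1970 and KT1975, and Gcnt3 at 241, 441 and 1667 units. KT1044 was thus the highest for Psca and the lowest for Gcnt3. Muc15 was at 386, 171 and 97.8 units, Muc1 at 17.8, 13.2 and 8.0 units, Muc20 at 25.5, 5.50 and 2.67 units, and Muc4 at 1.11, 1.10 and 0 units in the same order of lines. All 3 KT cultures were above the UPPL1541, BBN963 and MB49 cultures for Gcnt3, while Muc4 was below the UPPL1541 culture in all 3. Muc4 held 1, 1 and 0 reads in the KT cultures and 3 reads in the BBN963 culture. These lie at or under the floor of 3 reads and cannot be told apart. Superficial urothelial markers summed to 2305 to 23140 units in the KT cultures, against 289 units in UPPL1541, 92.5 units in BBN963 and 14.45 units in MB49 cultures.

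Within the primary tumours the 6 genes gave 15 pairs, which were described by Pearson's r on the log2 scale over 20 tumours after the mean of each model was taken out, with no p. Psca and Gcnt3 had the highest r, at 0.70 (UPPL r 0.66 and rho 0.50, n = 9, and BBN r 0.71 and rho 0.44, n = 11). Without the 2 tumours of each model farthest from its Psca median, r was 0.26 in UPPL and 0.45 in BBN tumours. Leaving out extreme tumours narrows the range of Psca and can lower r by itself. The fall therefore does not show how far the relation rests on those tumours. BBN974 and BBN972, the lowest tumours for Psca, were also low for Gcnt3, at 9.95 and 20.2 units. Muc4 and Muc20, the neighbours on chromosome 16, had an r of 0.68 (UPPL r 0.37 and rho 0.43, n = 9, and BBN r 0.81 and rho 0.84, n = 11). Without the 2 tumours of each model farthest from its Muc4 median, r was 0.40 in UPPL and 0.65 in BBN tumours. The 2 values of a point come from 1 library and share its depth, and those of Muc4 and Muc20 also share exonic bases.

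**Figure D4:**
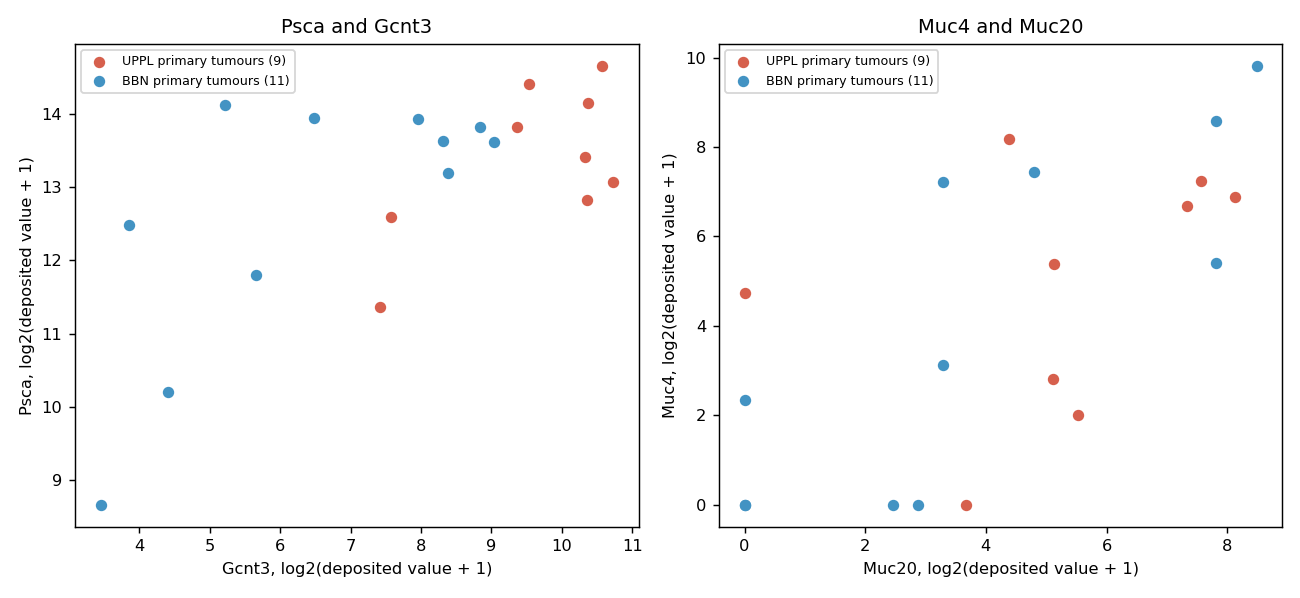
Each point is a primary tumour on log2(deposited value + 1) axes, red for the 9 UPPL and blue for the 11 BBN tumours. Psca and Gcnt3 are both low in a few BBN tumours, and Muc4 and Muc20 are spread over their whole range in both models.

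The genes most like each of the 6 were taken as those with the highest r over the same 20 tumours among 12817 genes. An r picked in this way is high by selection, and how high it would be by chance was not tested. Psca was most like Rhpn2 (0.87), Omp (0.85) and Epn3 (0.81), the last an endocytic adaptor of epithelial cells. Gcnt3 was most like Cited2 (0.87), a transcriptional co-regulator, Krt80 (0.80), a type II keratin, and Fam3b (0.78). The Krt80 value came from BBN tumours, with r of 0.94 there and 0.10 in UPPL tumours.

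Muc15 was most like Coro1b (0.89), an actin regulator, Gnal (0.86) and Limk2 (0.84), a kinase that acts on cofilin. Muc4 was most like Lgals12 (0.77), Zfp830 (0.75) and Tlr6 (0.73), and Muc20 like Npdc1 (0.75), Zfp809 (0.73) and Prpf19 (0.72). Muc4 was listed at 0 in 4 BBN tumours and 1 UPPL tumour, and Muc20 in 3 BBN tumours and 1 UPPL tumour. Muc1 was close to Mmp7 (0.74), a matrix metalloprotease of epithelia, and Ptpn18 (0.73), a phosphatase. None of the 6 genes appeared among the 3 most like genes of another.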

How the data were processed

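RNA of 30 mouse bladder tumours and 6 cultures was isolated with RNeasy and made into TruSeq Stranded mRNA libraries, per the labels' protocols. The submitters' processing notes name mm9, RSEM, SAMtools and Picard 1.64 but not what each was used for. The authors deposited signal values per gene from RSEM, on a scale where each library has a 75th percentile (over values above 0) of 998.9 to 1000. Dividing each library by its smallest step gave whole numbers, within 0.02 of a read, for 92.0 to 96.3% of values above 0, read here as reads.

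Values were fitted as log2(value + 1) with limma 3.58.1 (variance trend) in R 4.3.3, on genes at 1% of the median 75th percentile or more in at least the number of libraries of the smallest group in that comparison. The fits were of primary tumours only, of all 3 sets of line-derived tumours, of the 4 UPPL and BBN tumour groups, and of tumours with cultures, where line was a factor. Because nothing says that the tumours of a line come from independent experiments, p-values measure the spread between these libraries, which may be technical in part. No libraries held the same values, with r of 0.90 to 0.98 between replicates.

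Each result was recomputed with a larger pseudocount (10), a stricter filter or none, 2 other scalings (quantile, median-of-ratios), array weights, an untrended variance, and edgeR 4.0.16 quasi-likelihood on recovered reads. It was also recomputed without each library of its fit, and without those of the 5 tumours whose smallest values repeated most often at 10 or more reads. All results but tumours over cultures were refitted with all 36 libraries in 1 fit. A block on tumour number was used for the comparisons between line-derived tumours. Each line was left out for tumours over cultures, and the primary tumours numbered as the lines for the fit of the 4 UPPL and BBN tumour groups. Named are the 6 genes, up to 4 genes of each list, and the 3 genes most like each of the 6. The members, lists and tests were chosen with earlier results of these data known. A further allele of the UPPL genotype and 1 gene picked by the naming rule are not reported here. The columns of the KT cultures spell their names KAT and were matched by number. The floors of fold bounds were set after the values were seen. Scripts were tested on simulated data. Cell types were checked with fixed marker lists, and promoter sequences came from RefSeq (GRCm38.p6) for 3 of the 6 genes.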

Additional observations from a re-analysis of the deposited data

Results flagged for a closer look

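In the 4 MB49 tumours, Muc4 in MB49 tumour 3 (2.13 units) and Gcnt3 in MB49 tumour 1 (8.32 units) each stood apart from the other 3 tumours. Those were all at 0, so any value above 0 stands apart in this way, and the Muc4 value is 2 reads, under the 3 reads taken as floor. The 16 sets examined in this way were each a single gene in a single group, and the BBN primary tumours were not among them. Chance flags about 1 in 20 where values are normally distributed, a rate that does not hold for sets with 3 values at 0. MB49 tumour 1 is among the 5 tumours whose smallest values repeated most often at 10 or more reads, and the Gcnt3 value corresponds to 8 reads.

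The difference of UPPL over BBN tumours itself differed between line-derived and primary tumours for 2 genes, by 8.60 ± 1.85 for Muc1 and by -6.91 ± 1.58 for Gcnt3 (limma interaction term, adjusted p = 0.0055 and 0.0079). Muc1 was above every BBN963 tumour in 4 of 4 UPPL1541 tumours, and Gcnt3 was below every BBN963 tumour in 4 of 4. These groups did not overlap for 45.9% of the 14604 genes tested, and Muc1 was at 0 in both BBN963 tumours. The Muc1 term missed the threshold in 2 of 11 other settings and the Gcnt3 term in 1 of 11.

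The KT cultures, which enter no comparison, held Muc1, Muc15, Psca and Gcnt3 above the level that 3 reads allow in all 3 lines, with lowest values of 8.0 units for Muc1, 97.8 units for Muc15, 1226 units for Psca and 241 units for Gcnt3.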

How the results depend on the processing

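Over the 8 comparisons, 1337 values of the 6 genes were recomputed, of which 1161 kept their direction and their side of the threshold, 104 lost the call, 24 gained it and 48 changed sign. No called difference of the 6 genes changed sign under a setting listed here. Muc1, Muc4, Muc20 and Gcnt3 gave no value where a filter removed them. Counts of called genes moved by more than 1.5 times in 1 fit over all 36 libraries, to 4698 from 7073 for UPPL1541 over MB49, to 1617 from 4208 for UPPL1541 over BBN963 and to 3772 from 6121 for BBN963 over MB49. With array weights they were 6579 (main 3960) for UPPL line-derived over primary tumours, 1810 (main 1182) for BBN line-derived over primary tumours, 2740 (main 1404) for the interaction and 2134 (main 4163) for tumours over cultures. In edgeR they were 729 for BBN line-derived over primary tumours and 412 for the interaction, and without the tumours of coarse low values 433 and 453. Quantile scaling gave 760 for the interaction, and leaving out line UPPL1541 gave 2142 for tumours over cultures.

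The tumour numbers did not pair the libraries, since same-numbered tumours of different lines had correlations of -0.109 to 0.075, and a replicate block on the number gave 2682 called genes for UPPL1541 over BBN963. In that block the Muc1 call of UPPL1541 over MB49 and the Muc20 and Gcnt3 calls of UPPL1541 over BBN963 were lost (limma adjusted p = 0.055, 0.054 and 0.094). Leaving out 1 library each time gave 2588 (without BBN963 tumour 1) to 4436 genes for UPPL1541 over BBN963, 345 (without BBN963 tumour 1) to 1520 for BBN line-derived over primary tumours, and 448 (without BBN963 tumour 1) to 1680 for the interaction. Without BBN963 tumour 2 the BBN count was 691, and without UPPL1541 tumour 1 the interaction count was 841. Where a single BBN963 tumour remained, it was assumed to vary like the other groups.

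The share of called genes that were higher moved by over 10 percentage points with scaling. It was 30.9% in UPPL over BBN primary tumours (50.1% with quantile scaling, 48.6% with median-of-ratios, 55.2% in edgeR) and 74.4% in UPPL1541 over BBN963 (49.8%, 59.7% and 53.6%). In BBN963 over MB49 it was 37.7% and 50.8% in edgeR, in UPPL line-derived over primary tumours 77.0% (47.2%, 63.9% and 51.0%), in BBN line-derived over primary tumours 26.9% (38.6% with median-of-ratios, 42.9% in edgeR), in the interaction 88.5% (53.4%, 68.2% and 47.1%) and in tumours over cultures 69.1% (45.4% with quantile scaling, 57.4% in edgeR). Quantile scaling shifted the median of all genes to -0.07 from 0.36 in UPPL line-derived over primary tumours, and to 0.00 from 0.55 in the interaction.

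Differences that changed sign were all uncalled, and the cause was not tested. Muc4 in UPPL over BBN primary tumours was -0.85 in edgeR. Muc20 in UPPL line-derived over primary tumours was -0.14 with quantile scaling and -0.34 in edgeR. In BBN line-derived over primary tumours, a pseudocount of 10 gave -0.39 for Muc4 and -0.11 for Gcnt3, edgeR gave -2.16 for Muc4, -0.42 for Muc15, -0.13 for Psca and -0.85 for Gcnt3, leaving out tumours of coarse low values gave -0.59 for Muc4, 1.27 for Muc20 and -0.29 for Gcnt3, and leaving out the tumours numbered as the lines gave -0.087 for Muc15. The Muc20 interaction was -1.15 without tumours of coarse low values. In tumours over cultures, Muc20 was -0.61 with a pseudocount of 10, -0.82 with quantile scaling, -0.47 with array weights, -1.01 in edgeR, -0.83 without line BBN963 and -0.51 without line MB49. There, Muc1 was 0.32 without line UPPL1541 and 0.12 without line BBN963, Psca was -0.34 without line BBN963 and Gcnt3 was 0.21 without line UPPL1541.

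Leaving out 1 library gave ranges across 0 for Muc20 in BBN963 over MB49 (-1.30 to 3.56) and the interaction (-0.074 to 4.79). In BBN line-derived over primary tumours they were -0.93 to 1.84 for Muc4, -0.14 to 0.78 for Muc15, -3.71 to 1.16 for Muc20, -0.051 to 0.70 for Psca and -0.47 to 0.49 for Gcnt3. In tumours over cultures they were -2.96 to 0.32 for Muc1, -1.09 to 1.238 for Muc4, -0.83 to 1.82 for Muc20, -0.34 to 2.22 for Psca and -1.12 to 0.21 for Gcnt3. Floors cover counting error only. Calls were gained with array weights for Muc15 in UPPL line-derived over primary tumours and for the Psca interaction (limma adjusted p = 0.019 and 0.029), and in tumours over cultures for Muc1 with quantile scaling (0.026) and for Muc15 with a pseudocount of 10 or no variance trend (0.028 and 0.020).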

Other observations

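Further values of related genes come from the line-derived tumours. In UPPL1541 over UPPL primary tumours, St3gal4 and St3gal2, which add sialic acid to O-glycans and other chains, were higher, St3gal4 at 1637 ± 157 units in UPPL1541 and 416 ± 135 units in UPPL primary tumours (2.06 ± 0.49, limma adjusted p = 0.0028). Galnt3 was lower, at 541 ± 79.6 units in UPPL1541 and 1800 ± 828 units in UPPL primary tumours (-1.60 ± 0.30, limma adjusted p = 0.00028). Of 10 tested initiating enzymes 2 were higher and 2 lower, and of 13 tested extension enzymes 3 were higher, beside 27.3% of all genes called there (21.0% higher and 6.30% lower), and the extension count is near that share. Agr2 was higher, at 95.4 ± 63.0 units in UPPL1541 and 11.06 ± 10.03 units in UPPL primary tumours (3.57 ± 1.19, limma adjusted p = 0.026). Agr2 was at 0 in both BBN963 tumours and at 125 ± 171 units in BBN primary tumours (-5.89 ± 1.53, limma adjusted p = 0.017), so its interaction term was 9.47 ± 1.94 (limma adjusted p = 0.0038). Both values take the zeros of the BBN963 tumours as listed. The floor of those tumours was 17.6 units, above the mean of UPPL primary tumours, and Agr2 was not recomputed under other settings. In primary tumours Agr2 and Muc1 were both lower in UPPL than in BBN.

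In tumours over cultures, 7 of 15 tested Ly6 and uPAR family genes were higher and 1 was lower, against 29.1% of all genes in either direction (20.1% higher and 8.99% lower). Fibroblast and leukocyte markers were higher for all 6 tested genes of each list and endothelial markers for all 5. Since several of these genes were at 0 in some or all of the cultures, the counts were partly fixed beforehand. Fibroblast sums were 14883 to 368464 units in tumours and 27.1 to 1006 units in the 3 cultures, and leukocyte sums 3821 to 14088 units in tumours and 173 to 488 units in cultures. The part of these cells in the family's values was not tested. Ly6d was higher by 3.51 ± 0.69 (limma adjusted p = 0.0022). Of the other lists, Spdef was higher by 3.49 ± 0.90, Galnt6 by 3.23 ± 0.88 and B3galt5, a galactosyltransferase, by 3.04 ± 0.91 (limma adjusted p = 0.012, 0.015 and 0.025). Each was the only gene called in its list, of 6 secreted mucins and partners, 8 initiating enzymes and 13 extension enzymes tested. Those shares were under the 20.1% of all genes called higher.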
